A study of Homo sapiens with 17 samples.

Results

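The Iroquois homeobox genes IRX1, IRX2, IRX3, IRX4, IRX5 and IRX6 were followed by name across sorted populations of cells differentiated from human pluripotent stem cells. The table of expression values held 6 rows with these names, 1 for each gene, among 20218 gene names. Of the 6 genes, 5 passed the filter on low values and were among the 14845 genes tested, and IRX6 did not pass. The measurements were RNA-seq levels in FPKM, fragments scaled to transcript length and to the mapped fragments of the library, which are per length and can be compared between genes.

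The 17 libraries were made from cells sorted on GFP and mCherry fluorescence. They derive from H9, a human embryonic stem cell line, in a version that the labels call SHOX2, after the gene of a pacemaker transcription factor. The labels do not name the gene that drives mCherry, and all groups come from this same line. The groups were GFP+mCherry+ cells at day 25 of differentiation (3 libraries, numbered 1, 4 and 7), GFP-mCherry+ cells at day 25 (libraries 2, 5 and 8), GFP-mCherry- cells at day 25 (libraries 3, 6 and 9), GFP+mCherry+ cells at day 40 (2 libraries, 10 and 13), GFP-mCherry+ cells at day 40 (libraries 11, 14 and 17) and GFP-mCherry- cells at day 40 (libraries 12, 15 and 18). All differentiations began with CHIR99021, BMP4 and Activin A. A cardiomyocyte procedure went on with XAV939, and a sinoatrial node procedure used cucurbitacin, retinoic acid, SU5402, XAV939, Tyrphostin AG 490 and the histone deacetylase inhibitor chidamide. The labels call the cells of all groups sinoatrial node-like and do not say which procedure gave which population. Nor do they give separate cultures for the replicates, so a p-value here measures only how these libraries vary among themselves, and that variation may be technical.

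Iroquois genes encode homeodomain transcription factors of the TALE class, whose homeodomain holds an extra loop of residues, and they bear a motif of their own, the Iro box. In mammals they lie in a pair of clusters, IRXA (IRX1, IRX2 and IRX4) and IRXB (IRX3, IRX5 and IRX6). In the heart, IRX4 is known as a gene of the ventricular myocardium, IRX3 for its part in the fast ventricular conduction system, and IRX5 for the gradient of potassium current across the ventricular wall. IRX1 and IRX2 are known in the ventricular septum, and also in lung, limb and neural tissue.

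On the hg19 build IRX4 (ENSG00000113430) lies on chromosome 5 at 1877540 to 1887350, IRX2 (ENSG00000170561) at 2745958 to 2752969 and IRX1 (ENSG00000170549) at 3596167 to 3601517. On chromosome 16, IRX3 (ENSG00000177508) lies at 54317215 to 54320675, IRX5 (ENSG00000176842) at 54964773 to 54968397 and IRX6 (ENSG00000159387) at 55357671 to 55364672. Within IRXA, 858.6 kb separated IRX4 from IRX2 and 843.2 kb separated IRX2 from IRX1. Within IRXB, 644.1 kb separated IRX3 from IRX5 and 389.3 kb separated IRX5 from IRX6.

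The stretches upstream of the 3 IRXA genes are shown because these neighbours had different patterns across the populations, described further on, although their promoters share a base composition. They come from RefSeq on GRCh38.p14, on each gene's own strand and 5′ to 3′, and the capitals mark E-boxes, the letters CANNTG. The IRX4 and IRX1 windows are the 250 bases before the start. The IRX2 window is the 215 bases between the start of IRX2 and that of its divergent partner C5orf38, whose identifier is that of IRX2-DT. They lie at chr5:1887180-1887429 (minus strand) for IRX4, chr5:2751678-2751892 (minus strand) for IRX2 and chr5:3595582-3595831 (plus strand) for IRX1.
IRX4: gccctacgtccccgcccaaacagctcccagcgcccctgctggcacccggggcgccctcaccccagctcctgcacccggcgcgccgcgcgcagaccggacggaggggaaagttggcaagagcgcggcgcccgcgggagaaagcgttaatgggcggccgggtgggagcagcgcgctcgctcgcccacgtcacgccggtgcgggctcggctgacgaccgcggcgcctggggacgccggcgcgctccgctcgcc
IRX2: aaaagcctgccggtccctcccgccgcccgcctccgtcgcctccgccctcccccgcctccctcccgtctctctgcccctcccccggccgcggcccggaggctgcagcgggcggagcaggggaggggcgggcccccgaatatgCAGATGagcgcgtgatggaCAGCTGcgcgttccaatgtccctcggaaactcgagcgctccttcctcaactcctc
IRX1: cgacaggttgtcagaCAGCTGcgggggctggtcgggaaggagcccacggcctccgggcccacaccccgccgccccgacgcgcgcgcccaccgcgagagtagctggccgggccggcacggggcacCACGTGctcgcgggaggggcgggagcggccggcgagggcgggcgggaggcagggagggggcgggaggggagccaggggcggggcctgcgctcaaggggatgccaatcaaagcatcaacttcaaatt
All 3 were rich in G and C, at 77.6% in IRX4, 72.6% in IRX2 and 75.2% in IRX1, against a median of 58.0% over 34943 promoter windows of 250 bases. They held 40, 24 and 29 CpG dinucleotides, against a median of 11. The IRX4 window held 0 E-boxes on either strand, the IRX2 window 2 and the IRX1 window 2, where 61.8% of all 250-base windows and 56.5% of all 215-base windows held at least 1. The GC box GGGCGG, searched on both strands, was found at 2 places in IRX4, 4 in IRX2 and 6 in IRX1, and in 42.5% of all 250-base windows and 40.9% of all 215-base windows. Other strings searched on both strands had no match, which says only that these letters are not in these windows. They were ACANNTGT, known for IRX binding and held by 4.7% of all 250-base windows, AGATAA of GATA factors (9.2%), AGGTGT of T-box factors (9.6%), CACTTAA of NKX2 factors (2.1%), TGACAG of MEIS factors (13.1%), the TATA-box string TATAAA (10.8%) and AGGTCA of nuclear receptors (12.1%).

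The sort itself was visible in the libraries. SHOX2 was at 49.0 to 139 FPKM in the 5 GFP+mCherry+ libraries and at or below 2.41 in the 12 others. The summed level of 5 sinoatrial markers (SHOX2, TBX3, TBX18, ISL1 and HCN4) was 133 to 279 FPKM in GFP+mCherry+, 66.1 to 92.4 in GFP-mCherry+ and 81.9 to 132 in GFP-mCherry- cells at day 25. This sum includes SHOX2, at a mean of 91.8 FPKM in GFP+mCherry+ cells, so it is not separate from the SHOX2 levels. Mean HCN4 was 40.3 FPKM in GFP+mCherry+, 41.7 in GFP-mCherry+ and 8.23 in GFP-mCherry- cells at day 25. Mean ISL1 was 10.7 FPKM in GFP+mCherry+ and 11.8 in GFP-mCherry- cells. The label of sinoatrial node-like cells for the GFP-mCherry- libraries stands beside summed levels of 8 cardiomyocyte markers of 219 to 1219 FPKM, below all libraries of the other populations. Fewer genes had a value above 0 in library 13 (16493) and library 14 (16598) than in any other, where at least 17108 did. Library sums of FPKM lay between 566029 and 660085.

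IRX4, the ventricular member, was high in the GFP-mCherry+ cells and low in the other populations at both days. At day 25 the GFP-mCherry+ libraries 2, 5 and 8 were at 53.8, 76.4 and 52.7 FPKM, the GFP+mCherry+ libraries 1, 4 and 7 at 0.311, 2.90 and 4.32, and the GFP-mCherry- libraries 3, 6 and 9 at 1.15, 0.987 and 0.507. At day 40 the GFP-mCherry+ libraries 11, 14 and 17 were at 30.6, 9.79 and 15.4 FPKM, the GFP+mCherry+ libraries 10 and 13 at 2.11 and 0.105, and the GFP-mCherry- libraries 12, 15 and 18 at 2.00, 0.695 and 0.504. The GFP-mCherry+ libraries lay above those of both other populations at each day with no overlap, while the other 2 populations overlapped each other. Mean IRX4 in GFP-mCherry+ cells was 61.0 FPKM ± 13.4 (SD, n = 3) at day 25 and 18.6 ± 10.8 (SD, n = 3) at day 40. These means were 69.2-fold and 17.5-fold those of the GFP-mCherry- cells at days 25 and 40, and 24.3-fold and 16.8-fold those of the GFP+mCherry+ cells.

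IRX3, the most abundant IRXB gene, was also high in GFP-mCherry+ cells but was measured at several FPKM in nearly every library. At day 25 it stood at 51.1, 49.1 and 32.1 FPKM in the GFP-mCherry+ libraries 2, 5 and 8, at 3.45, 7.19 and 4.82 in the GFP+mCherry+ libraries 1, 4 and 7, and at 15.3, 13.1 and 9.28 in the GFP-mCherry- libraries 3, 6 and 9. At day 40 it stood at 49.8, 47.3 and 39.5 FPKM in the GFP-mCherry+ libraries 11, 14 and 17, at 6.21 and 0.729 in the GFP+mCherry+ libraries 10 and 13, and at 13.2, 5.91 and 5.00 in the GFP-mCherry- libraries 12, 15 and 18. At day 25 the 3 populations did not overlap, with GFP-mCherry- cells in the middle, and at day 40 the 2 lower populations overlapped. Mean IRX3 in GFP-mCherry+ cells, at 44.1 FPKM ± 10.5 (SD, n = 3) and 45.6 ± 5.37 (SD, n = 3), was 8.55-fold and 13.1-fold that of GFP+mCherry+ cells and 3.50-fold and 5.67-fold that of GFP-mCherry- cells, at days 25 and 40.

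IRX5, the IRXB neighbour known from cardiac repolarisation, followed the same order of populations as IRX3 at a lower level. At day 25 it was at 5.08, 4.19 and 3.81 FPKM in the GFP-mCherry+ libraries 2, 5 and 8, at 0.453, 0.900 and 0.720 in the GFP+mCherry+ libraries 1, 4 and 7, and at 1.23, 1.66 and 1.58 in the GFP-mCherry- libraries 3, 6 and 9. At day 40 it was at 3.18, 4.19 and 5.19 FPKM in the GFP-mCherry+ libraries 11, 14 and 17, at 1.01 and 0.0406 in the GFP+mCherry+ libraries 10 and 13, and at 1.08, 0.750 and 1.64 in the GFP-mCherry- libraries 12, 15 and 18. The GFP-mCherry+ libraries again stood apart from the rest at both days, the GFP-mCherry- libraries lay above the GFP+mCherry+ libraries at day 25, and these 2 populations overlapped at day 40. Mean IRX5 in GFP-mCherry+ cells was 4.36 FPKM ± 0.654 (SD, n = 3) at day 25 and 4.19 ± 1.00 (SD, n = 3) at day 40, and was 6.31-fold and 7.97-fold that of GFP+mCherry+ cells.

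IRX1 had another order, with its highest levels in cells that lacked both reporters. At day 25 it was at 23.5, 28.6 and 26.8 FPKM in the GFP-mCherry- libraries 3, 6 and 9, at 15.8, 19.4 and 7.20 in the GFP-mCherry+ libraries 2, 5 and 8, and at 1.08, 4.60 and 3.55 in the GFP+mCherry+ libraries 1, 4 and 7. At day 40 it was at 2.86, 4.09 and 9.87 FPKM in the GFP-mCherry- libraries 12, 15 and 18, at 3.82, 2.20 and 1.71 in the GFP-mCherry+ libraries 11, 14 and 17, and at 0.484 and 0.414 in the GFP+mCherry+ libraries 10 and 13. The 3 populations did not overlap at day 25, and at day 40 only the GFP+mCherry+ libraries stood apart, at the bottom. Within each population every day 40 library lay below every day 25 library. Mean IRX1 at day 25 was 6.85-fold its day 40 mean in GFP+mCherry+ cells, 5.49-fold in GFP-mCherry+ cells and 4.70-fold in GFP-mCherry- cells.

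IRX2, the other IRXA gene beside IRX1, had the smallest ratio of highest to lowest library among the 5 tested members and was above 1 FPKM in all 17 libraries. At day 25 it was at 12.5, 17.4 and 20.1 FPKM in the GFP-mCherry- libraries 3, 6 and 9, at 11.1, 10.8 and 7.04 in the GFP-mCherry+ libraries 2, 5 and 8, and at 3.36, 5.33 and 4.42 in the GFP+mCherry+ libraries 1, 4 and 7. At day 40 it was at 11.4, 4.47 and 8.86 FPKM in the GFP-mCherry- libraries 12, 15 and 18, at 6.26, 7.26 and 5.84 in the GFP-mCherry+ libraries 11, 14 and 17, and at 3.22 and 6.24 in the GFP+mCherry+ libraries 10 and 13. The populations were apart from each other at day 25 and overlapped at day 40. The GFP-mCherry- mean was 3.82-fold the GFP+mCherry+ mean at day 25 and 1.74-fold at day 40.

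IRX6, the last gene of the IRXB cluster, was at or below 0.422 FPKM in every library, and library 13 listed it at 0. Its group means lay between 0.0224 FPKM in GFP+mCherry+ cells at day 40 and 0.264 in GFP-mCherry- cells at day 25, where its libraries ranged from 0.0352 to 0.422. It was therefore described by level only.

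**Figure D1:**
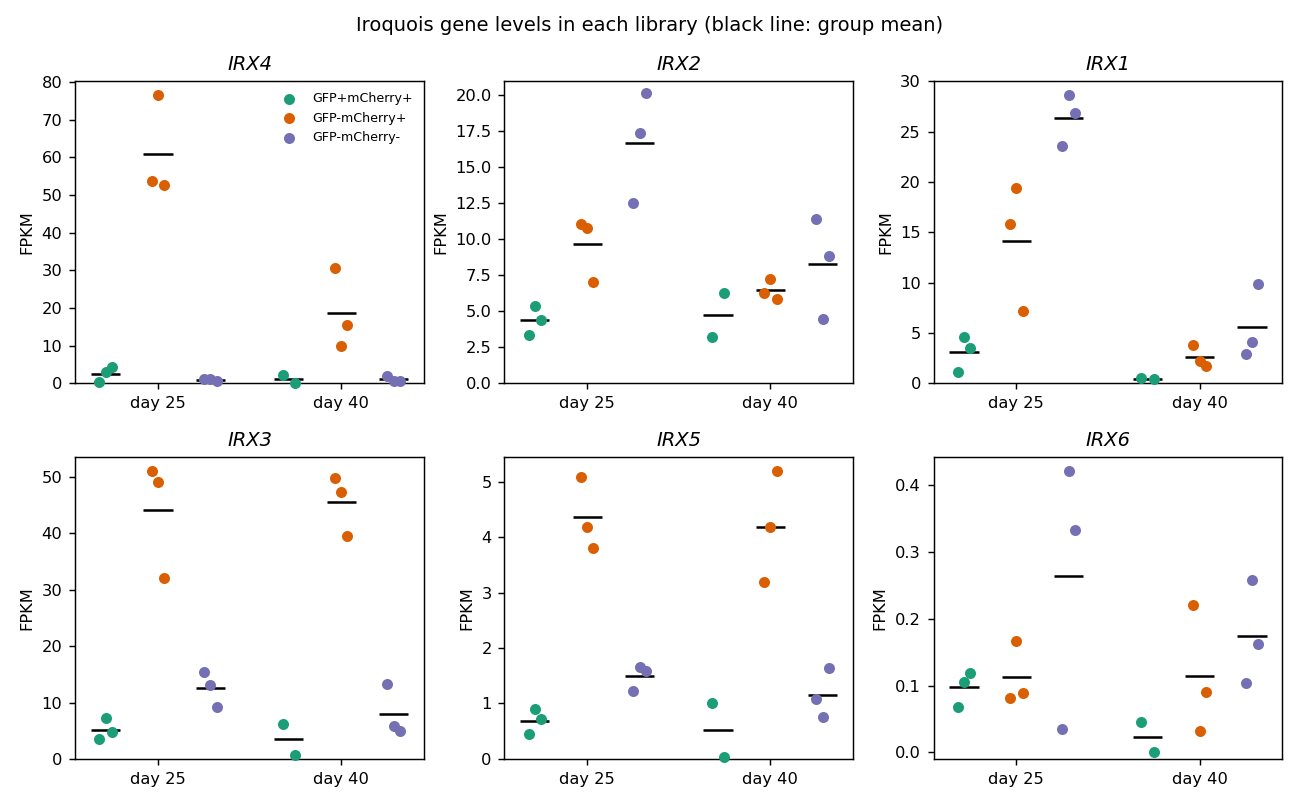
FPKM of each Iroquois gene (1 panel a gene, linear axis) in each of the 17 libraries, ordered by population and day, with points for libraries and black lines for group means. IRX4, IRX3 and IRX5 are highest in the GFP-mCherry+ libraries at both days, IRX1 and IRX2 are highest in the GFP-mCherry- libraries at day 25, and IRX6 stays at or below 0.422 FPKM.

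Ranked by group mean, IRX4 went from GFP-mCherry+ cells at day 25 to the same cells at day 40 and then to GFP+mCherry+ cells at day 25, with no overlap between these neighbours, and the 4 lower groups overlapped one another in turn. For IRX3 and IRX5 the 2 GFP-mCherry+ groups overlapped each other and stood apart from GFP-mCherry- cells at day 25, next in order. For IRX1 the day 25 GFP-mCherry- group stood apart at the top and the day 40 GFP+mCherry+ group stood apart at the bottom. For IRX2 only the top group, GFP-mCherry- cells at day 25, was apart from its neighbour.

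Counted together, the genes made up different mixtures in GFP-mCherry+ and GFP-mCherry- cells. The summed FPKM of the 6 genes was 133 ± 28.8 (SD, n = 3) in GFP-mCherry+ cells at day 25 and 77.5 ± 14.3 (SD, n = 3) at day 40, 58.2 ± 4.18 and 24.3 ± 7.40 (SD, n = 3) in GFP-mCherry- cells, and 15.9 ± 6.40 (SD, n = 3) and 10.3 ± 3.92 (SD, n = 2) in GFP+mCherry+ cells. In GFP-mCherry+ cells at day 25 IRX4 gave 39.3% to 51.2% of the sum and IRX3 30.7% to 37.3%. By day 40 the order was turned, with IRX3 at 53.0% to 66.8% and IRX4 at 13.8% to 32.6%. The day difference of IRX4 in these cells did not pass the test described further on, and was smaller with a correction for transcript GC content. In GFP-mCherry- cells at day 25 IRX1 gave 43.7% to 46.0%, the largest share in every library of the group. IRX2 gave 23.3% to 34.3% and IRX3 15.8% to 28.5%, and IRX3 exceeded IRX2 in library 3. In GFP+mCherry+ cells at day 25 IRX3 gave 26.9% to 39.6%, IRX2 24.6% to 38.5%, IRX1 12.4% to 21.9% and IRX4 3.57% to 24.1%. Each of these ranges overlapped that of the same gene in GFP-mCherry- cells at day 40. In GFP+mCherry+ cells at day 40 the share of IRX2 was 24.6% in library 10 and 82.9% in library 13, so no common mixture can be given for this group.

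**Figure D2:**
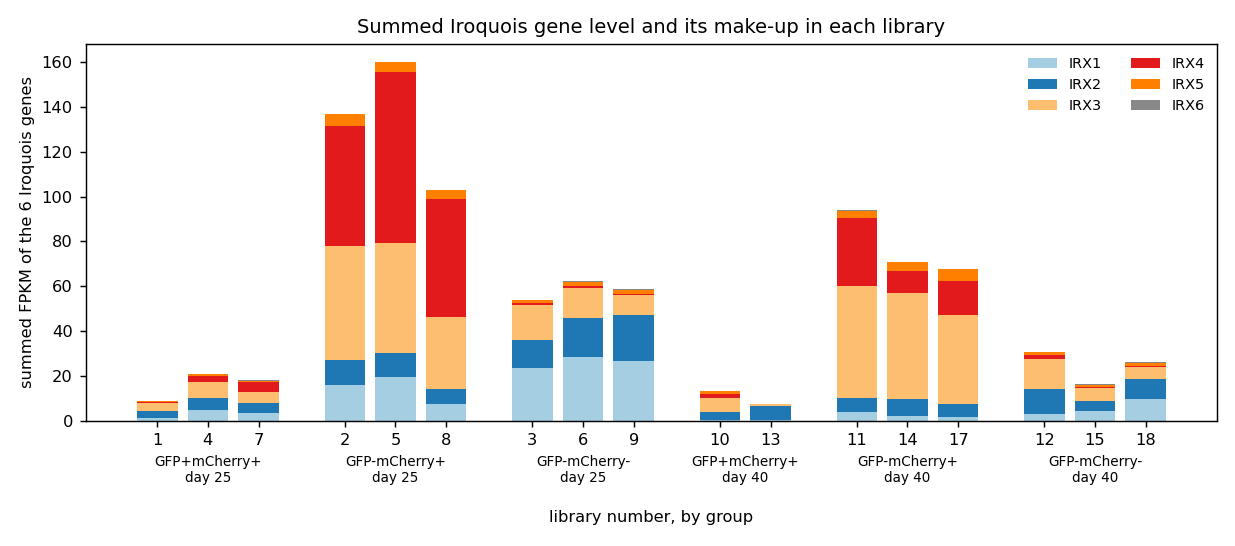
Stacked bars of the summed FPKM of the 6 Iroquois genes in each of the 17 libraries, coloured by gene, from a baseline of 0. The GFP-mCherry+ bars are mostly IRX4 and IRX3, with IRX4 giving 39.3% to 51.2% at day 25 and 13.8% to 32.6% at day 40, and the day 25 GFP-mCherry- bars are led by IRX1.

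Ratios between members were also set beside each other at the 2 days. In GFP-mCherry+ cells the ratio of IRX4 to IRX3 in FPKM was 1.05, 1.56 and 1.64 in the 3 day 25 libraries and 0.207, 0.391 and 0.615 in the 3 day 40 libraries, with no overlap. The limit on the day difference of IRX4 given above holds here too. The ratio of IRX3 to IRX5, neighbours on chromosome 16, was 8.42 to 11.7 at day 25 and 7.61 to 15.7 at day 40 in the same cells, overlapping between days. In GFP-mCherry- cells this ratio was 5.87 to 12.4 at day 25 and 3.05 to 12.2 at day 40. In GFP+mCherry+ cells it was 6.70 to 7.99 at day 25, and 6.15 and 17.9 at day 40. The ratio of IRX1 to IRX2 was 1.33 to 1.88 in GFP-mCherry- cells at day 25 and 0.251 to 1.11 at day 40. It was 0.321 to 0.862 in GFP+mCherry+ cells at day 25, and 0.0663 and 0.150 at day 40. The day difference of IRX1 in GFP+mCherry+ cells did not pass the test described further on, and was smaller with the correction for transcript GC content.

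The first question the sort allows is how GFP+mCherry+ cells differed from GFP-mCherry+ cells, the 2 mCherry populations. All 5 tested Iroquois genes were lower in GFP+mCherry+ cells at day 25 and 3 of 5 at day 40, where 20.4% and 25.5% of all tested genes were called in either direction. Differences are given as log2(FPKM + 1), with the standard error and the Benjamini-Hochberg adjusted p of a limma fit over all tested genes, and calls are at an adjusted p under 0.05. Because 1 is added to each value, these differences understate the change of genes near or below 1 FPKM. At day 25 IRX4 was lower, at -4.34 ± 0.50 (adjusted p = 0.000129), IRX3 at -2.89 ± 0.43 (0.000592), IRX1 at -1.91 ± 0.42 (0.00569), IRX5 at -1.67 ± 0.25 (0.000592) and IRX2 at -0.98 ± 0.30 (0.0305). At day 40 IRX3 was lower, at -3.71 ± 0.48 (0.000189), IRX4 at -3.26 ± 0.56 (0.000980) and IRX5 at -1.82 ± 0.28 (0.000459). IRX1 differed by -1.26 ± 0.47 (0.0591) and IRX2 by -0.43 ± 0.33 (0.373) and did not pass. The median over the 5 genes was -1.91 at day 25 and -1.82 at day 40, beside 0.06 and 0.08 over all tested genes.

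IRX4, IRX3 and IRX5 passed at both days, and IRX1 at day 25, under each of 26 other ways of processing. The day 25 call of IRX2 did not hold without library 1 (adjusted p = 0.103), 2 (0.0935), 5 (0.102) or 7 (0.0709), nor without the filter on low values, and IRX1 at day 40 passed under 7 of the 26, among them those without library 1, 8 or 18 and a pseudocount of 0.1, which gave -2.21 (0.0129). With that pseudocount the IRX5 differences were -2.53 at day 25 and -3.41 at day 40.

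The summed cardiomyocyte and ventricular markers differed in the direction of these genes, and the summed fibroblast markers in the opposite direction. Atrial and sinoatrial markers did not share the direction of the cardiomyocyte markers. The summed FPKM of 8 cardiomyocyte markers (TNNT2, TNNI3, ACTN2, MYH6, MYH7, TTN, RYR2 and PLN) was 1742 to 3953 in GFP+mCherry+ cells and 6504 to 9347 in GFP-mCherry+ cells at day 25, and 2983 to 4109 and 8705 to 11036 at day 40, and 5 and 6 of the 8 were lower in GFP+mCherry+ cells at the 2 days. All 4 ventricular markers (MYL2, MYL3, HEY2 and PRDM16) were lower at both days, and their sum was 42.0 to 122 against 2190 to 2618 FPKM at day 25 and 30.7 to 198 against 724 to 2185 at day 40. Of 5 atrial markers 3 were higher and 1 lower in GFP+mCherry+ cells at day 25, and 0 were higher and 1 lower at day 40. Of the 5 sinoatrial markers, which include SHOX2, 3 were higher at day 25 and 2 at day 40, and 0 were lower. Of 7 fibroblast markers, 5 were higher in GFP+mCherry+ cells at both days, with sums of 8501 to 14119 against 2905 to 4026 FPKM at day 25. Of 6 epithelial markers 4 were higher at day 25 and 1 at day 40, of 4 macrophage markers 1 and 3, and 0 were lower. Of 4 tested endoderm markers 2 were higher at day 25 and 0 at day 40, and 0 were lower. In bulk samples such as these, fewer cells of a type and less RNA per cell cannot be told apart, and the part of the cell mixture in the Iroquois differences was not tested.

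Set against the cardiomyocyte sum, IRX4 was lower in every GFP+mCherry+ library than in the GFP-mCherry+ libraries of the same day. Per 1000 FPKM of the 8 markers, IRX4 was 0.179 to 1.26 FPKM in GFP+mCherry+ cells and 5.64 to 8.59 in GFP-mCherry+ cells at day 25, and 0.0353 to 0.515 and 1.12 to 2.78 at day 40. On the same scale IRX3 was 1.41 to 1.98 against 3.43 to 7.85 at day 25 and 0.244 to 1.51 against 4.19 to 5.44 at day 40. IRX5 was 0.210 to 0.260 against 0.408 to 0.781 at day 25 and 0.0136 to 0.246 against 0.288 to 0.550 at day 40. None of these 3 genes overlapped between the populations on this scale. The share of all genes without overlap on it was not computed, so this is no result about the members. IRX1, at 0.620 to 1.16 against 0.770 to 2.43, and IRX2, at 1.29 to 1.93 against 0.753 to 1.70, overlapped at day 25. At day 40 IRX1, at 0.118 to 0.139 against 0.181 to 0.346, was lower in both GFP+mCherry+ libraries, and IRX2, at 0.784 to 2.09 against 0.568 to 0.834, overlapped. This ratio is a description, since Iroquois transcripts were also present in the GFP-mCherry- cells, which hold few cardiomyocyte transcripts.

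GFP-mCherry+ cells were next set against GFP-mCherry- cells, which share the absence of GFP. IRX3, IRX4 and IRX5 were higher in GFP-mCherry+ cells at both days, 3 of 5 each time, where 28.5% of all tested genes were called at day 25 and 31.9% at day 40. IRX4 was higher by 5.04 ± 0.50 (adjusted p = 3.50e-06) at day 25 and 3.17 ± 0.50 (0.000213) at day 40. IRX3 was higher by 1.73 ± 0.43 (0.00614) and 2.47 ± 0.43 (0.000436), and IRX5 by 1.10 ± 0.25 (0.00316) and 1.27 ± 0.25 (0.00109). IRX1 and IRX2 lay on the other side of 0 and did not pass, with IRX1 at -0.95 ± 0.42 (0.104) and -0.79 ± 0.42 (0.168) and IRX2 at -0.73 ± 0.30 (0.0789) and -0.23 ± 0.30 (0.588). The members' medians of 1.10 and 1.27, beside -0.10 and -0.09 over all tested genes, therefore join differences of both signs.

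The calls of IRX3 and IRX4 at both days, and of IRX5 at day 40, held under all 26 alternatives. IRX5 at day 25 was 1.49 with an adjusted p of 0.0539 at a pseudocount of 0.1. When only the 2 groups compared entered the fit, IRX1 (0.0480) and IRX2 (0.0407) also passed at day 25, as lower in GFP-mCherry+ cells, and IRX2 also without library 15 (0.0435).

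The GFP-mCherry- cells held cardiomyocyte marker sums of 219 to 289 FPKM at day 25 and 257 to 1219 at day 40, where library 12 was the highest. Library 12 was also the highest of its group in IRX4, IRX3 and IRX2, and the 3 calls at day 40 held without it. All 6 epithelial markers (CDH1, EPCAM, KRT8, KRT18, KRT19 and CLDN4) and 6 of 7 fibroblast markers were lower in GFP-mCherry+ cells at both days. Epithelial sums were 2384 to 2771 FPKM in GFP-mCherry- cells and 741 to 1028 in GFP-mCherry+ cells at day 25, and fibroblast sums 7082 to 8679 and 2905 to 4026. Lung is a tissue in which IRX1 and IRX2 are also known, and of 4 lung markers NKX2-1, SFTPB and SFTPC were under 1 FPKM in every library, while SCGB3A2 reached 2.03 FPKM in GFP-mCherry+ and 1.32 in GFP-mCherry- cells at day 40. The part of these other cell types in the levels of IRX1 and IRX2 was not tested.

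GFP+mCherry+ and GFP-mCherry- cells differed in the IRXA genes IRX1 and IRX2 and not detectably in IRX4. At day 25, where 11.1% of all tested genes were called, 2 of 5 Iroquois genes passed, and both were lower in GFP+mCherry+ cells, IRX1 at -2.86 ± 0.42 (adjusted p = 0.000457) and IRX2 at -1.71 ± 0.30 (0.00166). At day 40, against a background of 11.8%, only IRX1 passed, at -2.04 ± 0.47 (0.0108). IRX4 differed by 0.69 ± 0.50 (0.415) at day 25, with a 95% interval of -0.37 to 1.75, and by -0.09 ± 0.56 (0.937) at day 40, with an interval of -1.27 to 1.10. IRX3, at -1.16 ± 0.43 (0.0955) and -1.25 ± 0.48 (0.0991), and IRX5, at -0.56 ± 0.25 (0.162) and -0.56 ± 0.28 (0.199), did not pass. The members' medians were -1.16 and -0.66, beside -0.03 and 0.02 over all tested genes. Markers of several cell types differed here too. Of the 8 cardiomyocyte markers 6 were higher in GFP+mCherry+ cells at day 25 and 4 at day 40, and 0 of 4 ventricular markers were called at either day. At day 25, 2 of 3 tested endothelial markers, 2 of 4 epicardial markers and 1 of 6 epithelial markers were lower. At day 40, 2 of 6 epithelial and 2 of 7 fibroblast markers were lower and 4 of 4 macrophage markers were higher. The part of these cell types in the IRX1 and IRX2 differences was not tested. The 3 comparisons of populations at a day share libraries in pairs, so they are not independent of each other.

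The day 25 differences of IRX1 and IRX2 between these populations held under all 26 alternatives. The day 40 difference of IRX1 did not hold without library 13 (adjusted p = 0.0891) or 18 (0.0503) or without libraries 13 and 14 together (0.0967), and it was -3.18 at a pseudocount of 0.1. IRX3 at day 40 was -2.28 (0.00625) without library 10 and -0.22 without library 13, so its value rested on which of the 2 GFP+mCherry+ libraries was kept, and IRX5 without library 10 was -1.03 (0.0326). IRX3 at day 25 passed without library 10 (0.0285), without 13 (0.0283), without 13 and 14 (0.0318) and with only the 2 groups compared (0.0290). Library 13 gave the lowest IRX3, IRX4 and IRX5 values of all 17 libraries while its IRX2, at 6.24 FPKM, exceeded that of library 10.

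**Figure D3:**
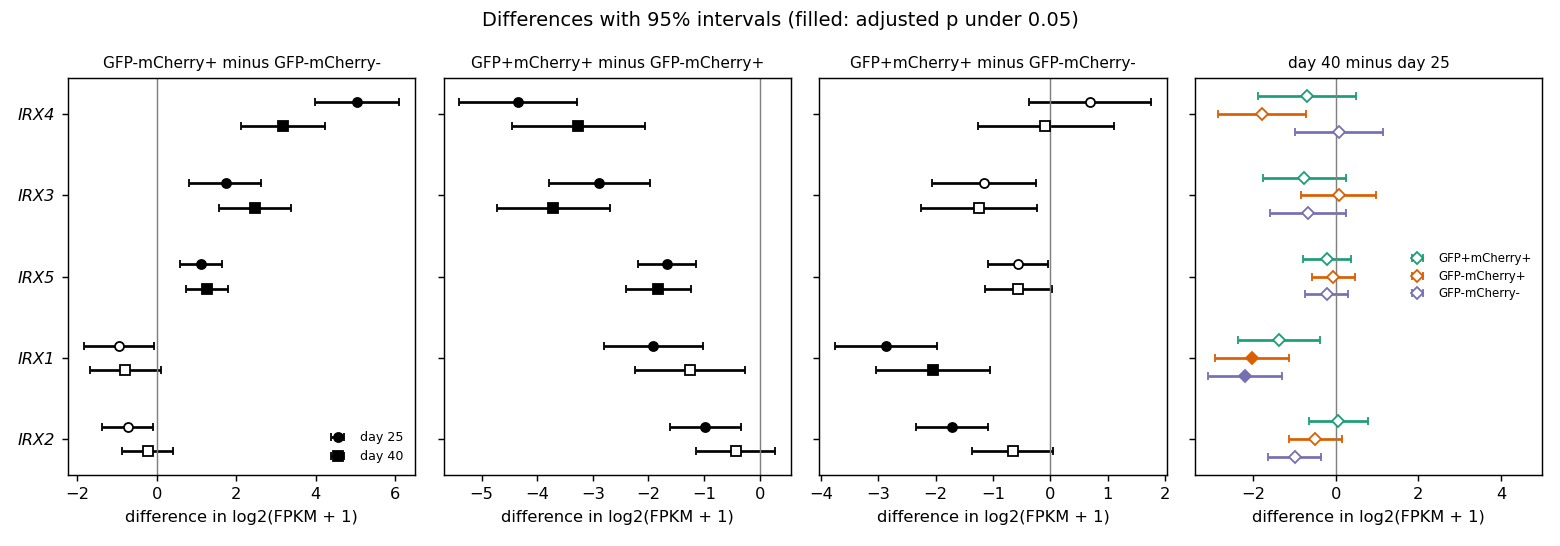
Differences in log2(FPKM + 1) of the 5 tested Iroquois genes between populations (3 panels, circles for day 25 and squares for day 40) and between days within a population (right panel), with 95% intervals and filled symbols for an adjusted p under 0.05. IRX4, IRX3 and IRX5 are filled in both comparisons with GFP-mCherry+ cells, with IRX4 at 5.04 over GFP-mCherry- cells at day 25, and IRX1 and IRX2 are filled between GFP+mCherry+ and GFP-mCherry- cells at day 25.

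Between day 25 and day 40 IRX1 was the member whose change passed the test. It fell by 2.02 ± 0.42 (adjusted p = 0.0139) in GFP-mCherry+ cells and fell by 2.19 ± 0.42 (0.0102) in GFP-mCherry- cells, 1 of 5 members called in each, where 4.55% and 3.87% of all tested genes were called. In GFP+mCherry+ cells 0 of 5 passed in the limma fit, against a background of 4.06%. At an unadjusted p under 0.05 there was 1 of 5 (IRX1), beside 2975 of the 14845 tested genes. IRX1 had a difference of -1.37 ± 0.47 (adjusted p = 0.111) there. IRX4 differed by -1.78 ± 0.50 (0.0537) in GFP-mCherry+ cells, with a 95% interval of -2.84 to -0.72. The IRX4 libraries of the 2 days did not overlap there, at 52.7 to 76.4 FPKM and 9.79 to 30.6, and the day 25 mean was 3.27-fold the day 40 mean. IRX3 and IRX5 differed by 0.07 ± 0.43 (0.964) and -0.06 ± 0.25 (0.947) in the same cells, with intervals of -0.84 to 0.97 and -0.58 to 0.47. IRX2 differed by -0.99 ± 0.30 (0.0814) in GFP-mCherry- cells, whose libraries of the 2 days did not overlap. The share of all tested genes whose groups do not overlap was not computed. A lack of overlap, here and elsewhere, is therefore only a description and adds nothing to the tests. The members' medians were -0.70 in GFP+mCherry+, -0.49 in GFP-mCherry+ and -0.67 in GFP-mCherry- cells, beside -0.04, -0.03 and -0.09 over all tested genes.

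The calls between days moved with the processing. In GFP-mCherry+ cells IRX1 did not pass without library 2 (0.0720), 5 (0.0798), 14 (0.0739) or 17 (0.0647), without 13 and 14 (0.0809) or with only the 2 groups (0.0824), and a correction for transcript GC content gave -1.15 (0.126). IRX1 and IRX4 have transcripts of 65.9% and 69.2% GC, against a median of 48.6% over all tested genes. With that correction IRX4 in GFP-mCherry+ cells was -0.69 (0.607). IRX4 passed there without library 1 (0.0249), 7 (0.0495), 10 (0.0410), 11 (-2.20, 0.0148), 12 (0.0453) or 13 (0.0409). In GFP-mCherry- cells IRX1 did not pass without library 6 (0.0501). In GFP+mCherry+ cells IRX1 passed at a pseudocount of 0.1 (-2.31, 0.0402) and without library 1 (-1.80, 0.0284), was -0.72 with the GC correction, and IRX3 was -1.79 (0.0269) without library 10 and 0.27 without library 13. In the comparison of days 0 of 8 cardiomyocyte, 0 of 7 fibroblast and 0 of 6 epithelial markers were called in any population, but markers of other cell types were. Macrophage markers (CD68, CSF1R, CD14 and PTPRC) were higher at day 40, 4 of 4 in GFP+mCherry+ cells and 3 of 4 in GFP-mCherry+ cells, with sums of 13.8 to 17.0 FPKM at day 25 and 62.5 to 140 at day 40 in the former and of 1.28 to 8.47 and 19.3 to 30.7 in the latter. In GFP-mCherry- cells 2 of 3 endothelial markers were lower and 1 of 4 ventricular markers was higher at day 40. Of the other lists 1 of 5 atrial markers was lower in GFP+mCherry+ and in GFP-mCherry- cells, and 1 of 4 tested endoderm markers was lower in GFP+mCherry+ and in GFP-mCherry+ cells. The part of these cell types in the day differences of the Iroquois genes was not tested. Library 14, the lowest of its group in IRX4, had the highest fibroblast sum (7306 FPKM) and the lowest ventricular sum (724 FPKM) of the day 40 GFP-mCherry+ libraries.

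Whether a difference between populations changed from day 25 to day 40 was tested directly, and 0 of 5 members passed in each of the 3 contrasts of the limma fit. Over all tested genes 0.0135% were called for GFP+mCherry+ against GFP-mCherry+, 0.00674% for GFP-mCherry+ against GFP-mCherry- and 1.24% for GFP+mCherry+ against GFP-mCherry-. At an unadjusted p under 0.05 the members counted 0, 1 and 1 of 5, beside 978, 994 and 1223 of the 14845 tested genes. IRX4 changed its difference between GFP-mCherry+ and GFP-mCherry- cells by -1.86 ± 0.71 (unadjusted p = 0.0180, adjusted p = 0.624). For IRX2 the difference between GFP+mCherry+ and GFP-mCherry- cells moved by 1.05 ± 0.45 (unadjusted p = 0.0327, adjusted p = 0.528).

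Genes that lie around the Iroquois clusters were described beside them. Within 1 Mb of the IRXA span the table held 14 other genes, of which 9 were tested, and within 1 Mb of the IRXB span 13, of which 9 were tested. Against GFP-mCherry+ cells, GFP+mCherry+ cells had 0 of the 9 IRXA neighbours higher and 3 lower at day 25, and 0 higher and 2 lower at day 40. The IRXB neighbours had 3 higher and 0 lower at day 25, and 4 higher and 1 lower at day 40. Over all tested genes 20.4% and 25.5% were called in this comparison, a share to which 2 or 3 of 9 lies near. The IRXB count at day 40, of 4 higher and 1 lower, lay above it. None of these counts was tested. In GFP-mCherry+ against GFP-mCherry- cells 2 IRXA neighbours were higher and 1 lower at day 25, and 2 higher and 3 lower at day 40. Among IRXB neighbours there 1 was higher and 1 lower at day 25, and 2 were higher and 2 lower at day 40, beside 28.5% and 31.9% of all tested genes. The day 40 counts of both clusters lay above that share, among 9 tested neighbours each, and were not tested either. Of the neighbours at 1 FPKM or more in some group, BRD9, TRIP13, SLC12A7 and CLPTM1L on the IRXA side and RBL2, AKTIP and RPGRIP1L on the IRXB side were called in none of the 12 comparisons.

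Some neighbours shared the direction of the nearest Iroquois gene, while others, such as LPCAT1 and NKD2 on the side of IRX4, went the other way. NDUFS6, which encodes a subunit of respiratory complex I and lies 60.8 kb from IRX4, was lower in GFP+mCherry+ than in GFP-mCherry+ cells at -2.07 ± 0.28 (adjusted p = 0.000289) at day 25 and -1.45 ± 0.31 (0.00344) at day 40, and higher in GFP-mCherry+ than in GFP-mCherry- cells by 1.60 (0.000431) and 1.18 (0.00400). MRPL36, a mitochondrial ribosomal protein gene, went the same way, with -1.12 (0.000718) and -0.82 (0.00612) in the former comparison and 0.70 (0.00589) and 0.71 (0.00533) in the latter, and the day 40 call in the former did not hold with only the 2 groups (0.0836). LPCAT1, a lysophospholipid acyltransferase gene, was lower in GFP-mCherry+ than in GFP-mCherry- cells, at -1.22 (0.00181) and -0.97 (0.00821). At day 40 C5orf38 was lower there too, at -0.78 (0.0467), a call that did not hold under 16 of the 26 alternatives. NKD2 was also lower there at day 40, at -1.78 (0.00839), though not without library 15 (0.0515). The part of the cell mixture in the differences of these neighbours was not tested.

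On chromosome 16 neighbours differed in direction among themselves. FTO, an RNA demethylase gene that is known to hold distant enhancers of IRX3 and IRX5 and lies 161.4 kb from IRX3, was called in none of the 12 comparisons of the fit (with the GC correction it was 0.45 higher in GFP-mCherry+ than in GFP-mCherry- cells at day 25, adjusted p = 0.0396), and its group means lay between 22.9 and 30.8 FPKM. MMP2, a matrix metalloproteinase gene 58.9 kb from IRX6, was higher in GFP+mCherry+ than in GFP-mCherry+ cells by 1.28 (adjusted p = 0.0219) and 1.47 (0.0155), opposite in sign to IRX3 and IRX5, and in GFP-mCherry+ against GFP-mCherry- cells it had a difference with a 95% interval of -1.77 to -0.23 that did not pass at day 25 (0.0503) and was lower at day 40, at -2.00 (0.000656). Its calls in the former comparison did not hold without library 1 (0.0944), 5 (0.0735) or 8 (0.0914) at day 25, nor without 10 (0.0805), 11 (0.0638) or 13 (0.0747) or with only the 2 groups (0.0744) at day 40. LPCAT2 was also higher there, by 1.50 (0.00361) and 1.65 (0.00276), and lower in GFP-mCherry+ than in GFP-mCherry- cells at -1.87 (0.000256) and -1.04 (0.0152). Of these 4 LPCAT2 calls those at day 40 depended on libraries, the former passing only with library 13 (0.0532 without it) and the latter only with libraries 11 (0.0777), 17 (0.0566) and 18 (0.0579) and with all groups in the fit (0.0536 otherwise). GNAO1, a G protein subunit gene, was higher in GFP+mCherry+ than in GFP-mCherry+ cells by 1.14 (0.0163) and 1.27 (0.0126) but not without library 2 (0.0721), 4 (0.0689), 5 (0.0552) or 7 (0.0734) at day 25 or 13 (0.0896) at day 40. GNAO1 was also higher in GFP-mCherry+ than in GFP-mCherry- cells, as IRX3 and IRX5 were, by 1.38 (0.00285) and 0.89 (0.0351), the day 40 call not holding without library 14 (0.103), 15 (0.135), 17 (0.0985) or 18 (0.0706). CHD9, a chromatin remodeller gene, was higher in GFP+mCherry+ than in GFP-mCherry+ cells at day 40 by 0.80 (0.0167), but not without library 11 (0.0592) or 13 (0.43, 0.325), without 13 and 14 (0.149) or with only the 2 groups (0.149). SLC6A2, the noradrenaline transporter gene, was higher in GFP-mCherry+ than in GFP-mCherry- cells at day 40, by 1.11 (0.0122), a call that did not hold without library 15 (0.0756) or 17 (0.0675) or with only the 2 groups (0.0603). It was lower in GFP+mCherry+ than in GFP-mCherry+ cells at day 40, at -1.06 (0.0344), in the direction of IRX3 and IRX5, but not under 8 of 25 alternatives, among them those without library 10 (0.152), 13 (0.106), 14 (0.0530) or 17 (0.132).

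**Figure D4:**
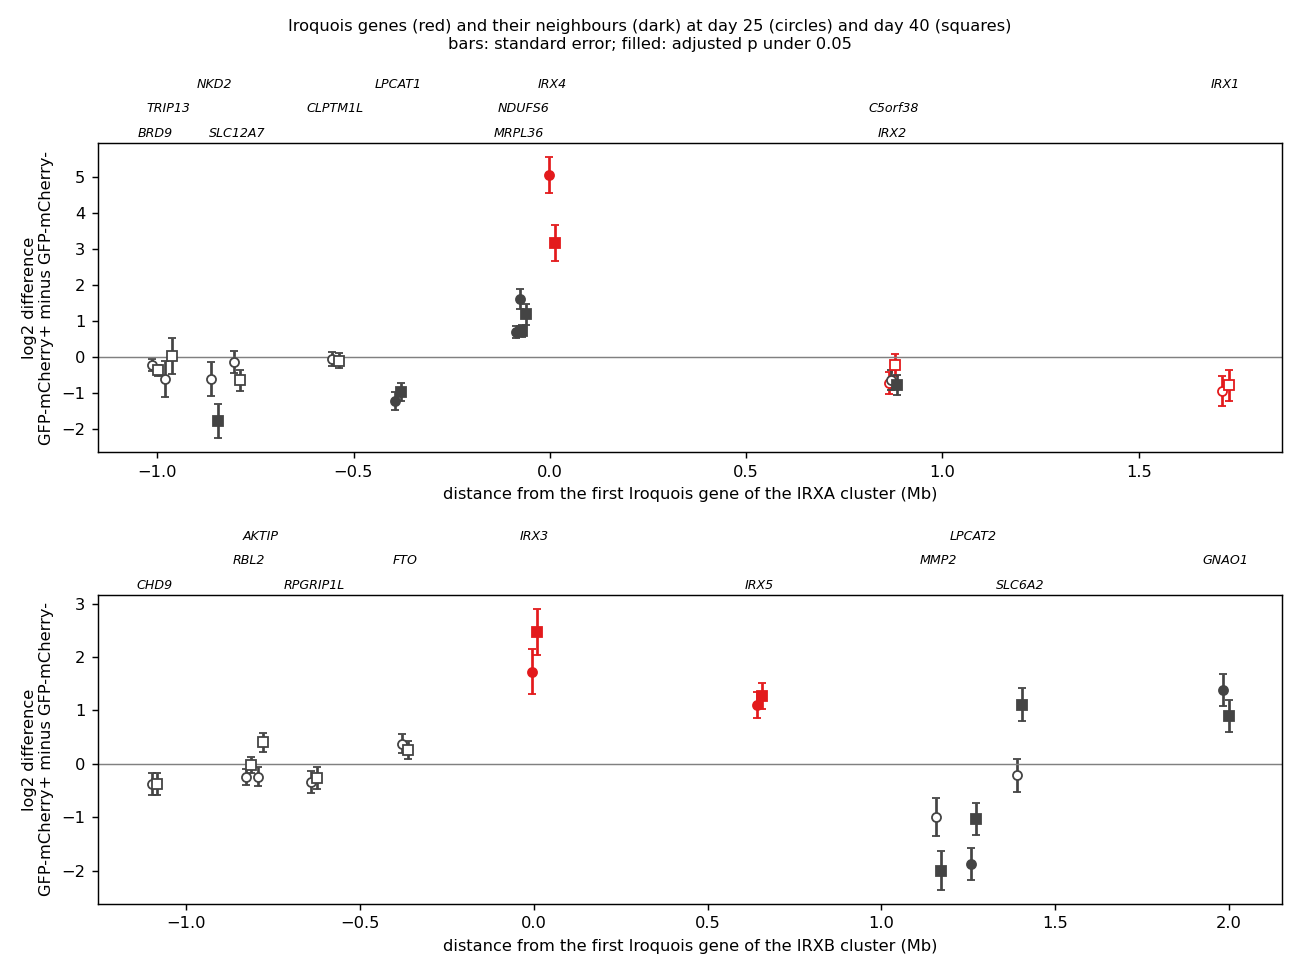
Difference in log2(FPKM + 1) between GFP-mCherry+ and GFP-mCherry- cells, with its standard error, of each tested gene of the IRXA and IRXB clusters against its distance in Mb from the first Iroquois gene, with Iroquois genes in red, neighbours dark and filled symbols for an adjusted p under 0.05. IRX4, at 5.04 at day 25, stands above all its neighbours, of which NDUFS6 at 1.60 is the highest, and FTO beside IRX3 is not called.

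C5orf38 is transcribed away from IRX2 and its annotated span overlaps that of IRX2 on hg19, and since the labels do not state strand, reads from the shared stretch cannot be told apart. Its values across the groups nonetheless followed IRX1 more closely than IRX2. At day 25 it was at 18.4, 24.9 and 31.9 FPKM in the GFP-mCherry- libraries 3, 6 and 9, at 15.8, 20.8 and 11.2 in the GFP-mCherry+ libraries 2, 5 and 8, and at 2.03, 3.77 and 3.90 in the GFP+mCherry+ libraries 1, 4 and 7. At day 40 it was at 3.50, 3.66 and 5.20 FPKM in the GFP-mCherry- libraries 12, 15 and 18, at 3.06, 1.39 and 1.66 in the GFP-mCherry+ libraries 11, 14 and 17, and at 0.528 and 0.735 in the GFP+mCherry+ libraries 10 and 13. Within each population every day 40 library was below every day 25 library.

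From day 25 to day 40 C5orf38 fell by 2.48 ± 0.28 (adjusted p = 0.000655) in GFP-mCherry+ cells and fell by 2.33 ± 0.28 (0.000799) in GFP-mCherry- cells, and these calls held under all 26 alternatives, with -2.23 and -2.24 after the GC correction. In GFP+mCherry+ cells it fell by 1.34 ± 0.32 (0.0244), a call that did not hold with only the 2 groups (0.0872), without library 4 (0.0921), 7 (0.108), 10 (0.0779) or 13 (0.128), or without 13 and 14 (0.113). Its ratio to IRX2 in FPKM was 1.43 to 1.93 in GFP-mCherry+ cells and 1.44 to 1.58 in GFP-mCherry- cells at day 25, and 0.191 to 0.488 and 0.306 to 0.819 at day 40. The Pearson correlation of log2(FPKM + 1) over the 17 libraries was 0.97 between C5orf38 and IRX1 and 0.81 between C5orf38 and IRX2. These libraries share populations and days, so the values are descriptions.

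**Figure D5:**
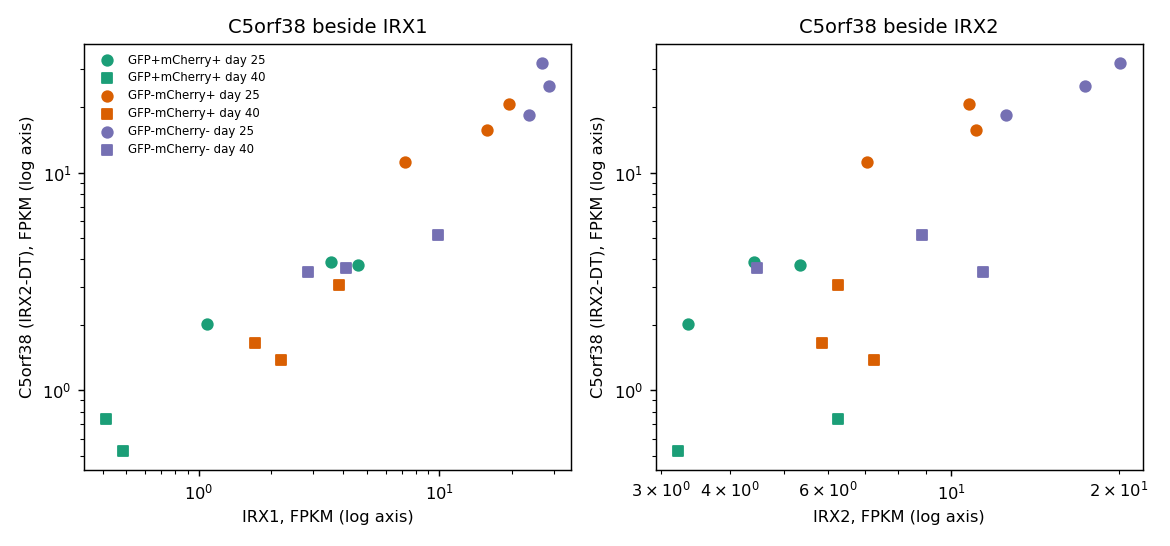
FPKM of C5orf38, the divergent partner of IRX2, against IRX1 (left) and IRX2 (right) on log axes, with 1 point for each of the 17 libraries, coloured by population. The points follow IRX1 more closely (Pearson r = 0.97 of log2(FPKM + 1)) than IRX2 (r = 0.81).

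The genes whose levels over the 17 libraries were most like each member were named by Pearson correlation of log2(FPKM + 1), the 4 highest for each, again as a description without a test. For IRX4 they were PRDM16 (0.974), MYADML2 (0.974), C1QTNF1-AS1 (0.972) and HSPB2 (0.971). PRDM16 encodes a transcription factor of compact ventricular myocardium and had means of 14.8 FPKM in GFP-mCherry+ cells at day 25, 8.68 at day 40, 1.10 in GFP+mCherry+ and 0.460 in GFP-mCherry- cells at day 25. For IRX5 the most alike of all tested genes was IRX3 (0.944), followed by SLC16A1 (0.933), IARS2 (0.932) and ISOC1 (0.932). IRX3 was itself most like TMEM246 (0.951), then IRX5, PSME1 (0.937) and SLC27A6 (0.934). IRX1 was most like C5orf38 and then ZBTB12 (0.950), CBX2 (0.950), PRRT4 (0.948) and MEX3A (0.943). The genes most like IRX2 were ZNF254 (0.883), SCUBE3 (0.867), TMTC4 (0.866) and THOC3 (0.866), all at lower values than for the other members. Within the family, IRX1 and IRX2 correlated at 0.83, IRX4 with IRX3 at 0.85 and with IRX5 at 0.84, and IRX4 with its cluster neighbours IRX1 and IRX2 at 0.17 and 0.04.

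The other TALE homeobox genes, some of whose products bind DNA with other homeodomain factors, did not share 1 direction. Of 12 on a list of MEIS, PBX, PKNOX, TGIF and related genes 11 were tested, and in GFP+mCherry+ against GFP-mCherry+ cells 3 were higher and 2 lower at day 25 and 4 higher and 1 lower at day 40, with medians of 0.03 and -0.07, beside 20.4% and 25.5% of all tested genes called. MEIS2, a cofactor of cardiac and limb development, was lower as the Iroquois genes were, at -1.20 ± 0.20 (adjusted p = 0.00126) and -1.07 (0.00323), with means of 78.4 against 182 FPKM at day 25 and 85.6 against 183 at day 40. TGIF1, a repressor in TGF-beta signalling, was higher by 0.94 (0.00674) and 1.06 (0.00487), PKNOX2 by 0.94 (0.00690) and 1.22 (0.00209), and MEIS3 by 0.91 (0.0302) and 0.99 (0.0286). The MEIS3 calls did not hold without library 4 (0.0862), 7 (0.0911) or 8 (0.51, 0.150) at day 25, nor without 13 (0.266), 14 (0.0569) or 17 (0.0593) at day 40. At day 40 those of TGIF1 (0.0559) and PKNOX2 (0.0511) did not hold without library 13 either, nor with only the 2 groups (0.0889 and 0.0784). In GFP-mCherry+ against GFP-mCherry- cells 1 was higher and 3 lower at day 25 and 1 higher and 4 lower at day 40, beside 28.5% and 31.9% of all tested genes, with MEIS2 higher by 0.75 (0.0103) and 0.75 (0.00929). The MEIS2 calls there did not hold without library 5 at day 25 (0.0562), or without library 15 (0.0601) or with only the 2 groups (0.0687) at day 40. MEIS3 was lower, at -1.85 (0.000141) and -2.25 (3.11e-05), and TGIF1 at -1.54 (6.71e-05) and -1.27 (0.000335). Between GFP+mCherry+ and GFP-mCherry- cells 0 were higher and 2 lower at day 25, and 0 higher and 1 lower at day 40, shares near the 11.1% and 11.8% of all tested genes. Between days only PBX4 was called, in GFP-mCherry+ cells, at -1.14 (0.0132). That call did not hold without library 2 (0.0771), 5 (0.0627) or 14 (0.0768), without 13 and 14 (0.0809), with only the 2 groups (0.0906) or with the GC correction, which gave -0.71 (0.101).

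Cardiac genes known as targets or partners of Iroquois factors were counted from a list of 21, of which 20 were tested. In GFP+mCherry+ against GFP-mCherry+ cells 2 were higher and 8 lower at day 25, and 1 was higher and 8 lower at day 40, with medians of -0.62 and -0.97, beside 20.4% and 25.5% of all tested genes called. MYL2, the ventricular regulatory myosin light chain gene, was lower, at -4.68 ± 0.49 (adjusted p = 7.02e-05) and -3.80 (0.000336), a size like that of IRX4. GJA5, which encodes the fast-conduction connexin and is known to be raised by IRX3 in mouse conduction tissue, was lower, at -2.71 (0.000177) and -1.44 (0.0102), the day 40 call not holding without library 13 (0.0714) or without 13 and 14 (0.0546). GJA1, a connexin gene that IRX3 is known to repress there and that is named here after its values were seen, was higher by 1.05 (0.0114, but 0.0561 without library 1) and 1.36 (0.00369). Picked in this way, GJA1 gives no test of regulation by IRX3. Mean GJA1 in GFP-mCherry- cells was 138 and 150 FPKM at days 25 and 40, beside 166 and 142 in GFP+mCherry+ cells. NKX2-5, a partner in the cardiac gene programme, was lower, at -3.75 (0.000553) and -3.35 (0.00141).

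In GFP-mCherry+ against GFP-mCherry- cells 13 of these 20 genes were higher and 2 lower at day 25, and 14 were higher and 2 lower at day 40, beside 28.5% and 31.9% of all tested genes. NPPA, the atrial natriuretic peptide gene, was higher by 6.88 (adjusted p = 7.20e-07) and 5.76 (4.82e-06), and GJA5 by 3.80 (1.29e-06) and 3.00 (1.26e-05). In GFP+mCherry+ against GFP-mCherry- cells 9 were higher and 0 lower at day 25 and 6 higher and 0 lower at day 40, beside 11.1% and 11.8% of all tested genes, where IRX1 was lower and IRX4 was not called. CXCL12, a chemokine gene that IRX5 is known to repress in craniofacial tissue, was higher there by 2.23 (3.08e-05) at day 25 and by 0.86 (0.0432) at day 40, a call that did not hold under 13 of the 26 alternatives, among them those without library 2, 5, 7, 8, 9, 10, 13, 15, 17 or 18. It was also higher in GFP-mCherry+ than in GFP-mCherry- cells, where IRX5 was higher too, by 1.27 (0.000743) and 0.84 (0.0120), the latter not without library 14 (0.0510) or 15 (0.0636). Between days 0 were higher and 1 lower in GFP+mCherry+ cells, 0 higher and 1 lower in GFP-mCherry+ cells and 2 higher and 1 lower in GFP-mCherry- cells, beside 4.06%, 4.55% and 3.87% of all tested genes. The gene that was lower was HAND1, a factor of left ventricular and extraembryonic development, at -1.45 ± 0.20 (0.000434), -0.84 ± 0.18 (0.0174) and -1.12 ± 0.18 (0.00404), and its call in GFP-mCherry+ cells did not hold without library 2 (0.0524), 5 (0.0864), 14 (0.0739) or 17 (0.0779), without 13 and 14 (0.0719), with only the 2 groups (0.0839) or with the GC correction (-0.57, 0.158). Many of these list genes are cardiac muscle genes, and the cardiomyocyte marker sums given above differed between the populations too. Of the 20 list genes, 10 at day 25 and 11 at day 40 were not called in GFP+mCherry+ against GFP-mCherry+ cells. The part of the cell mixture in the differences of the list genes was not tested.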

How the data were processed

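Libraries of RNA from the sorted cells were prepared with Illumina's TruSeq RNA kit. This is per the labels' protocols, which do not state strand. The deposited table holds 1 FPKM value for each gene and library. Per the submitters' processing notes, the tools named were bcl2fastq 2.19, cutadapt, STAR 2.5.2b and Cufflinks 2.1.1, with the hg19 build. The table's header names no unit, and FPKM is taken from Cufflinks in those notes. FPKM values keep no read counts, and steps of whole reads were looked for and not found, so the depth behind each value is unknown and no counting interval or floor is given.

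The table had 20368 rows, including 71 repeated gene identifiers, and rows of the same name were summed, which left 20218 genes. Values were put on the log2(FPKM + 1) scale, and genes at 1 FPKM or more in at least 2 libraries were tested. In R 4.3.3, limma 3.58.1 fitted 6 group means to the 17 libraries together (empirical Bayes with a trend), so that the groups share an estimate of spread, and p-values were adjusted by Benjamini-Hochberg within each of 12 comparisons. The code was tested on simulated data.

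The Iroquois genes were named in every comparison. Genes of each other list were named from among the up to 4 with the smallest adjusted p in a comparison, with GJA1 named beside them, and of the neighbours within 1 Mb those at 1 FPKM or more in a group. An item is not reported here. The members, lists and markers were chosen with earlier results of these data known. The alternatives were a pseudocount of 0.1, no filter, a filter of 5 FPKM, median-of-ratios scaling, quantile normalization, a fit of only the groups compared, isolated zeros set to missing, and each library left out in turn. Leaving out libraries 13 and 14 and a correction for transcript GC content were added after seeing the data. Promoter sequences are RefSeq's on GRCh38.p14, and 3 of the 6 genes had a window in the table used here.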

Additional observations from a re-analysis of the deposited data

How the results depend on the processing

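Of the Iroquois genes, IRX3, IRX4 and IRX5 kept their calls between GFP+mCherry+ and GFP-mCherry+ cells at both days under all 26 alternatives, and IRX1 and IRX2 between GFP+mCherry+ and GFP-mCherry- cells at day 25. The number of the 5 members called between GFP-mCherry+ and GFP-mCherry- cells at day 25 was 5 with only the compared groups. Between GFP+mCherry+ and GFP-mCherry- cells at day 40 it was 0 to 3 with 1 library left out and 0 without libraries 13 and 14. Between days in GFP+mCherry+ cells it was 1 at a pseudocount of 0.1 and 0 to 1 with 1 library left out. In GFP-mCherry+ cells it was 0 with only the compared groups, 0 without libraries 13 and 14, 0 with the GC correction and 0 to 2 with 1 library left out, and in GFP-mCherry- cells it was 0 to 1 with 1 library left out. The cause was not tested.

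Signs turned only for differences that were not called. With 1 library left out, IRX2 ranged from -0.57 to 0.02 in GFP-mCherry+ against GFP-mCherry- cells at day 40 (0.02 with the GC correction), and IRX4 from -0.83 to 0.66 in GFP+mCherry+ against GFP-mCherry- cells at day 40 (0.66 without libraries 13 and 14, 0.58 with the GC correction). Between days in GFP+mCherry+ cells the ranges were -0.33 to 0.45 for IRX2, -1.79 to 0.27 for IRX3, -1.44 to 0.05 for IRX4 and -0.69 to 0.26 for IRX5. Without libraries 13 and 14 these were -0.33, 0.27, 0.05 and 0.26, and with the GC correction IRX4 was 0.15 and IRX5 0.02. Between days in GFP-mCherry+ cells IRX3 ranged from -0.14 to 0.19 and IRX5 from -0.20 to 0.09, and IRX5 was 0.00 with median-of-ratios scaling, 0.08 with quantile normalization and 0.31 with the GC correction. In GFP-mCherry- cells IRX4 ranged from -0.22 to 0.28.

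Over all genes the calls between GFP+mCherry+ and GFP-mCherry+ cells numbered 3023 at day 25 (1766 to 3572 over the alternatives) and 3783 at day 40 (1241 to 4237). They numbered 4234 (3114 to 5256) and 4733 (3298 to 4903) between GFP-mCherry+ and GFP-mCherry- cells, and 1641 (859 to 2058) and 1751 (525 to 2128) between GFP+mCherry+ and GFP-mCherry- cells. Between days they numbered 602 (208 to 1038) in GFP+mCherry+, 675 (11 to 1621) in GFP-mCherry+ and 575 (154 to 765) in GFP-mCherry- cells. For the changes between days they were 2 (0 to 75), 1 (0 to 17) and 184 (7 to 222). The share of calls that were higher was 63.5% in GFP+mCherry+ against GFP-mCherry+ cells at day 40, and 49.9% with quantile normalization, which moved the median of all genes by -0.13, and 51.8% with the GC correction. Between days it was 53.7% in GFP+mCherry+ cells (68.4% with the GC correction), 13.9% in GFP-mCherry+ cells (26.2% with quantile normalization, 56.9% with the GC correction) and 40.2% in GFP-mCherry- cells (50.7% with median-of-ratios scaling, 55.7% with the GC correction).

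No paired analysis was made, because the labels give the groups no shared replicate numbers. The library numbers run in sets of the populations, but the labels do not say that a set came from the same culture. Any such pairing was left out of the fits. Without 1 of the 2 day 40 GFP+mCherry+ libraries, the remaining library is assumed to vary like the other groups. The unknown depth limits how far values below 1 FPKM, such as those of IRX6, can be read.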
